A study of Mus musculus with 47 samples.

Results

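The genes of DNA replication and S phase described here are a list of 41 mouse genes whose products license, start and carry out the copying of chromosomal DNA. A gene was included when at least 1 probe set of the array had that gene as its single symbol. This was so for 40 of the 41, with 87 probe sets among 45101. Chaf1a had no such probe set and is not described. Each of the 40 genes was represented by 1 probe set, out of 13507 genes represented on the arrays.

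Before S phase, the origin recognition complex and the loading factors Cdc6 and Cdt1 place the Mcm2-7 helicase on DNA. In S phase, Cdc45 and the GINS complex switch the helicase on, primase and the DNA polymerases copy the strands, and the sliding clamp Pcna holds the polymerases in place. Transcription of many of these genes is driven by E2F factors in cells that enter the cycle. In the small intestine, dividing cells lie in the crypts, and the cells that move out onto the villi have stopped dividing and absorb nutrients.

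Messenger RNA was measured on 47 Affymetrix 3' arrays from crypts and villi of the small intestine of C57BL/6 mice. In the genetic arm, mice aged 3 months on the purified control diet Ain76A were p21-/- (lacking Cdkn1a, the Cdk inhibitor p21), Apc1638N/+ (carrying 1 truncated allele of the tumor suppressor Apc) or wild type. In the diet arm, wild-type mice aged 1 year had been fed NWD2, NWD1 or Ain76A from weaning. NWD1 is a Western-style purified diet with more fat and less calcium and vitamin D than Ain76A, and NWD2 also has less of the nutrients that supply methyl groups. Each of the 12 groups of tissue and condition had 4 arrays, except villi of NWD2 mice with 3. The mice of the genetic arm and the controls of the diet arm shared the diet Ain76A, and age coincided with the arm. The labels do not say that arrays of a group came from separate animals, so p-values measure the spread between these samples, which may be technical. The number of arrays limits the precision of each fold.

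Marker genes or the number of measured genes differed widely between arrays of several groups. The mean log2 level of 11 enterocyte markers was 12.66, 14.62, 13.95 and 14.44 on crypt arrays 1 to 4 of wild-type mice, lowest on array 1 and highest on arrays 2 and 4. The 2 Paneth cell markers measured on every array, Lyz1 and Defa39, averaged 15.51 and 15.20 on villus arrays 1 and 2 of NWD1 mice, against 13.67 and 13.31 on arrays 3 and 4. Villus array 1 of NWD2 mice had 38 of the 40 replication genes measured, against 27 and 26 on the other 2 arrays. In villi of Ain76A mice, the diet controls, Lyz1 and Defa39 averaged 11.13, 10.68, 12.99 and 12.98 on arrays 1 to 4. Crypt arrays of Apc1638N/+ mice had 29 to 39 of the 40 genes measured. In these last groups arrays were left out only singly. Some results are also given without wild-type crypt arrays 2 and 4, NWD1 villus arrays 1 and 2, or NWD2 villus array 1. Those on crypts of Apc1638N/+ mice and on the interactions with genotype or NWD1 keep these arrays. As a check of the labels, 1 Cdkn1a probe set had no value on any of the 8 p21-/- arrays and a value on each of the 39 others, while another had values on all 47. The Apc probe sets were measured on arrays of Apc1638N/+ mice and do not check the truncation. The measured probe sets per array numbered 14814 to 23355. Levels are quantile-normalized log2 values, and log2 folds are fitted differences of these, with their SE after the sign ±.

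Promoter sequences are shown first, for the genes on which the comparison of crypts and villi turned. Mcm5 and Prim1 had the largest mean crypt excess among the replication genes tested, Cdc6 and Mcm10 the smallest, and Mcm6 held the most matches to the E2F motif. Each sequence is the 250 bases before the start site in the RefSeq promoter table (GRCm38.p6), written on the strand of the gene. Capitals mark matches to the 8-letter words TTTCCCGC, TTTCGCGC, TTTGCCGC or TTTGGCGC, forms of the E2F motif, on either strand.
Mcm5 promoter, chr8:75109259-75109508, plus strand: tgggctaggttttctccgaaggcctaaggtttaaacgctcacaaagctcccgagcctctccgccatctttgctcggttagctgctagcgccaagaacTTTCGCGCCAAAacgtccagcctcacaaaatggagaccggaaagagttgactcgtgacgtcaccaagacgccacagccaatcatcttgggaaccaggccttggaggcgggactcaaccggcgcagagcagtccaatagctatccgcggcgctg
Mcm6 promoter, chr1:128359706-128359955, minus strand: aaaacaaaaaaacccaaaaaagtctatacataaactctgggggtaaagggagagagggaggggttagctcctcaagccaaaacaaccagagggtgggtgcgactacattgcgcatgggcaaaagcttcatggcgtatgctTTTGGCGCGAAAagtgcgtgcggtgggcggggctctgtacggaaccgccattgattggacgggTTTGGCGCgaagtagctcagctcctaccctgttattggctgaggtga
Prim1 promoter, chr10:128014965-128015214, plus strand: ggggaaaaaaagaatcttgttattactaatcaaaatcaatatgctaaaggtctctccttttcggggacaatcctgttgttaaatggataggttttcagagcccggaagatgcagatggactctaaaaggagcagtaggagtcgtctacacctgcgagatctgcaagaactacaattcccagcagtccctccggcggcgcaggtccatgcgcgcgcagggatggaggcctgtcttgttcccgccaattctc
Cdc6 promoter, chr11:98907901-98908150, plus strand: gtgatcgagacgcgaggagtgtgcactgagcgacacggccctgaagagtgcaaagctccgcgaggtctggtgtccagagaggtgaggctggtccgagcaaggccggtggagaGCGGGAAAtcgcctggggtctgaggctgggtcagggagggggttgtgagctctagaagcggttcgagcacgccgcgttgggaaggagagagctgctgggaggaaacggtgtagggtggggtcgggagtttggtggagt
Mcm10 promoter, chr2:5012792-5013041, minus strand: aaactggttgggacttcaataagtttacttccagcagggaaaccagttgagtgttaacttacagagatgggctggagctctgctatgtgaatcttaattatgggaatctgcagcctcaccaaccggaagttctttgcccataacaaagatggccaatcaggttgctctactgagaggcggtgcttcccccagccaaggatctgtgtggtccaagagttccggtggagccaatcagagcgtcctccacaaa

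The Mcm5 window held 2 matches that overlap on opposite strands, with first bases 153 and 149 bases before the start. The Mcm6 window held 3, at 110, 106 and 47 bases before the start, of which the first 2 overlap. The Cdc6 window held 1, at 138 bases. That window lies inside the positions of the gene given below (chr11:98907709-98923942). The bases before that gene start were therefore not searched. No match was found in the windows of Prim1 and Mcm10, so a match was present in the window of 1 gene of each pair of large and small crypt excess.

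A RefSeq window of 300 bases, running from 250 before to 50 after the start, was given for 34 of the 41 listed genes. Of these, 14 held at least 1 of the 4 words (41.2%), against 704 of 27025 genes with a window (2.6%). The 14 were the licensing genes Mcm3, Mcm5, Mcm6, Mcm7, Orc1, Cdc6 and Cdt1, the polymerase genes Pola1, Pold1 and Pole2, and Gins3, Rfc3, Lig1 and Cdca7. TTTGCCGC was found in 0 of the 34, and TTTCCCGC in 7 (20.6%), against 1.24% of all genes. The letters CCAAT on either strand stood in 20 of 34 windows (58.8%), against 41.1% of all genes. A gene with several windows counted once, with a match in any of them. The windows of Cdc6, Orc1 and Dut lie wholly inside the positions of those genes. Lig1, Mcm7, Pold2 and Fen1 had several windows, of which at least 1 lies wholly inside the gene. The Lig1 match stood in such an inner window, and the Lig1 window across the gene start held none.

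How completely the genes were measured differed between the tissues. A cell of the deposited table can be blank, and a gene was tested when its representing probe set had values on at least 3 arrays of each group compared. With arrays left out, 2 remaining values per group were enough for a gene that met this rule on all arrays. Counts of measured genes are those of the representing probe set. Of the 40 genes, 25 had a value on all 24 crypt arrays and 11 on all 23 villus arrays. The 10 with a value on every array were Cdt1, Mcm4, Mcm6, Mcm7, Mcm10, Prim1, Pcna, Rpa1, Rpa2 and Rrm2.

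In Ain76A mice at 1 year, 38 genes were measured on all 4 crypt arrays and 23 on all 4 villus arrays. By this probe set, 8 of the 40 were on all crypt arrays and on no villus array. They were Orc1 and Orc6 of the origin recognition complex, the helicase activator Cdc45, the polymerase subunits Pola1, Pold1 and Pole, the flap nuclease Fen1 and thymidylate synthase Tyms. Another probe set had villus values for 3 of these, on 4 arrays for Fen1, 3 for Cdc45 and 1 for Pold1, which leaves 5 genes with no villus value from any probe set. In wild-type mice at 3 months the corresponding counts were 34 and 15, and 6 genes were on all crypt arrays and no villus array (Orc6, Gins1, Prim2, Pold1, Fen1 and Tk1). Other probe sets had villus values there for Pold1, on 3 arrays, and Fen1, on 1. In p21-/- mice the 3 such genes were Pold1, Fen1 and Tyms, with a second Pold1 probe set on 2 villus arrays. In NWD1 mice Pole was the 1 such gene, and NWD2 and Apc1638N/+ mice had 0. No condition had a gene on all villus arrays and no crypt array. The probe set of Gins2, another GINS subunit, had values on 2 crypt arrays of Ain76A mice and 1 of wild-type mice only. Its second probe set was on 4 crypt arrays and 1 villus array of Ain76A mice and of NWD1 mice. The representing probe sets of Orc1 and Gins3 had no value on crypt arrays of p21-/- mice. What made a cell blank is not stated in the labels. How often all genes showed these patterns was not counted. Over all probe sets, a mean of 22030 was measured in crypts and 21215 in villi of Ain76A mice. Wild-type mice had 20167.5 and 18239. The mean was lower in crypts than in villi of p21-/-, Apc1638N/+ and NWD2 mice.

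**Figure D1:**
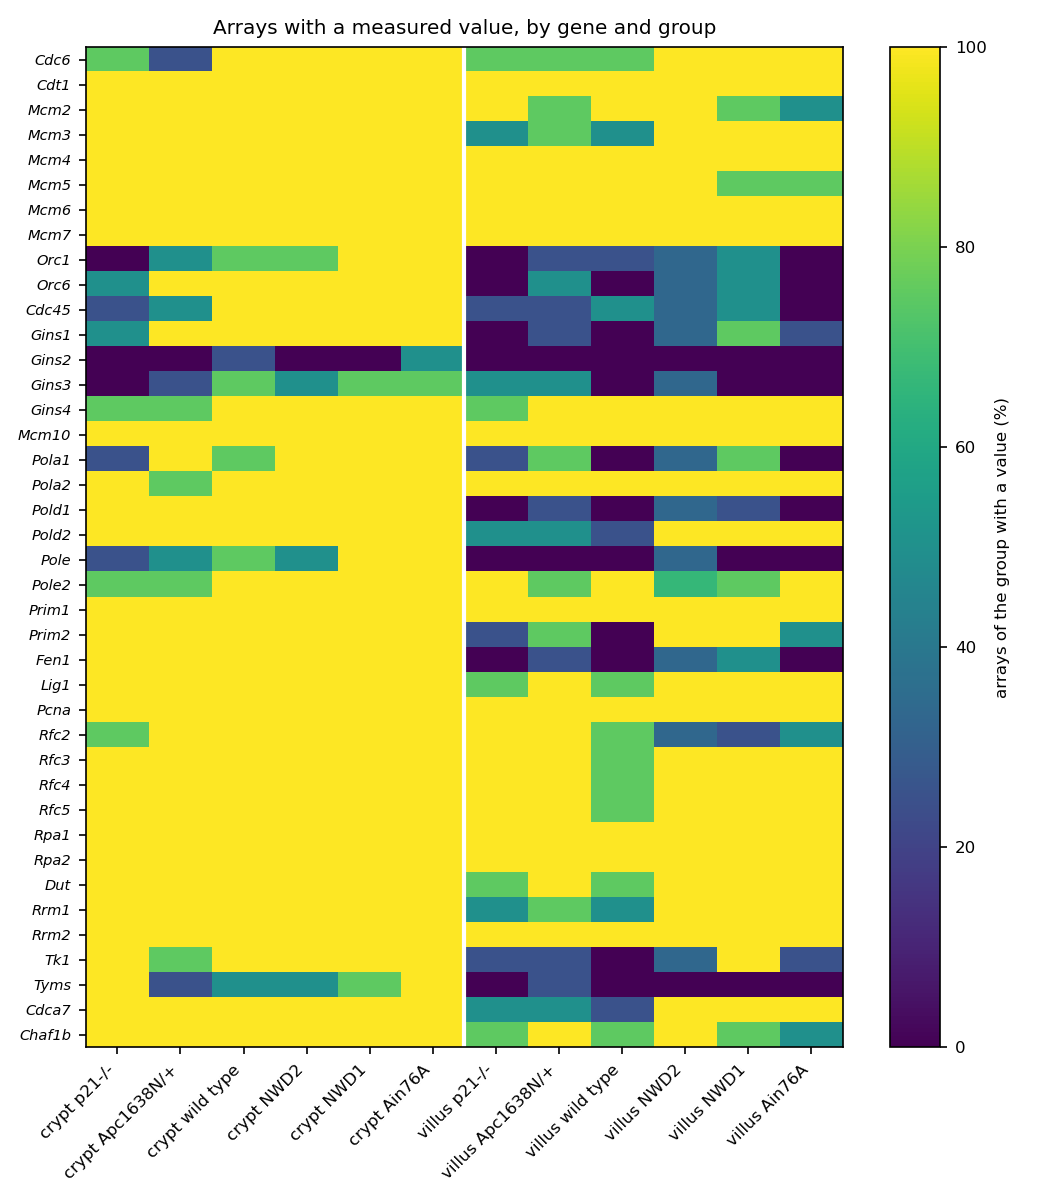
Share of the arrays of each group with a value (%, colour) for the representing probe sets of the 40 genes (rows, ordered by role from licensing at the top to chromatin assembly at the bottom) in 12 groups (columns, crypts left of the white line and villi right of it). Fen1, Pold1, Orc6 and Tyms are dark in most villus columns, while the 10 genes measured on every array are yellow throughout.

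Crypts were compared with villi in each condition to ask where along the epithelium the replication genes are expressed. In each of the 6 conditions, between 13 and 26 replication genes were called higher in crypts and 0 were called lower. A gene is called when its adjusted p from limma, fitted over all 12 groups, is under 0.05. Calls of a lower crypt level appeared in wild-type mice in some other fits, for Cdc6 and Mcm10 as given with those genes. In p21-/- mice, 16 of the 23 genes tested were higher in crypts, with a median log2 fold of 1.33, while 23.4% of all genes tested were called higher. In Apc1638N/+ mice 21 of 26 were higher (median 1.25), against 21% of all genes. In wild-type mice 13 of 23 were higher (median 0.90), against 20.4% of all genes, whose median fold was -0.11.

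In the diet arm, 18 of 26 genes were higher in crypts of NWD2 mice (median 1.09), while 7.62% of all genes were called higher. In NWD1 mice 26 of 30 were higher (median 1.69), against 22.0% of all genes. In Ain76A mice 21 of 24 were higher (median 2.16), against 26.8% of all genes. The medians cover the genes tested in each condition, and these sets differ, so the medians are not directly comparable. Of the 18 genes tested in every condition, 10 were called in all 6 (Mcm4, Mcm5, Mcm6, Mcm7, Cdt1, Prim1, Pcna, Rfc4, Lig1 and Dut) and Pola2 in none. In all, 31 genes were tested in at least 1 condition. The 9 tested in none were Orc1, Orc6, Cdc45, Gins2, Gins3, Pold1, Pole, Fen1 and Tyms, whose representing probe sets were blank on most villus arrays. For 3 of them another probe set met the rule. That of Fen1 gave 2.33 in Ain76A mice and was called higher in crypts in the 4 conditions where it could be tested, down to 1.37 in NWD2 mice (limma adjusted p = 0.0124). That of Pold1 was likewise called in 4 conditions, from 0.86 in wild-type mice (limma adjusted p = 0.0376) to 1.60 in NWD1 mice. That of Cdc45 gave 0.17 in Ain76A mice, on 3 arrays of each tissue. Tissue RNA cannot tell fewer cells of a type from less RNA per cell.

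Without crypt arrays 2 and 4 of wild-type mice, 14 of 23 genes were higher in their crypts (median 1.06). Without villus arrays 1 and 2 of NWD1 mice, 20 of 24 genes were higher in crypts of those mice. In NWD2 mice, the count was 18 without villus array 1 and 8 without either of villus arrays 2 and 3.

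Marker lists were compared in the same way. In Ain76A mice all 11 enterocyte markers were lower in crypts (median -2.06), and in NWD2 mice 0 of 11 were called. In wild-type mice 3 of 11 were lower and 1 higher (median -0.31). Of all genes tested, 2215 of 8538 were lower in crypts of Ain76A mice, 432 of 8601 in NWD2 mice and 1968 of 7590 in wild-type mice. The share of enterocyte markers called lower in wild-type mice was near that of all genes. All 13 mitosis genes tested were higher in crypts of Ain76A mice (median 3.45), with the smallest p for Cks2, Mad2l1 and Ccnb2, and all 5 in wild-type mice (median 2.90). Paneth cell markers were higher in crypts in each condition, in 4 of 4 tested in Ain76A mice and 3 of 3 in wild-type mice. Lymphocyte markers were lower in crypts of wild-type mice in 5 of 5 tested (median -3.08). The part of these cell types in the fold of the replication genes was not tested.

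**Figure D2:**
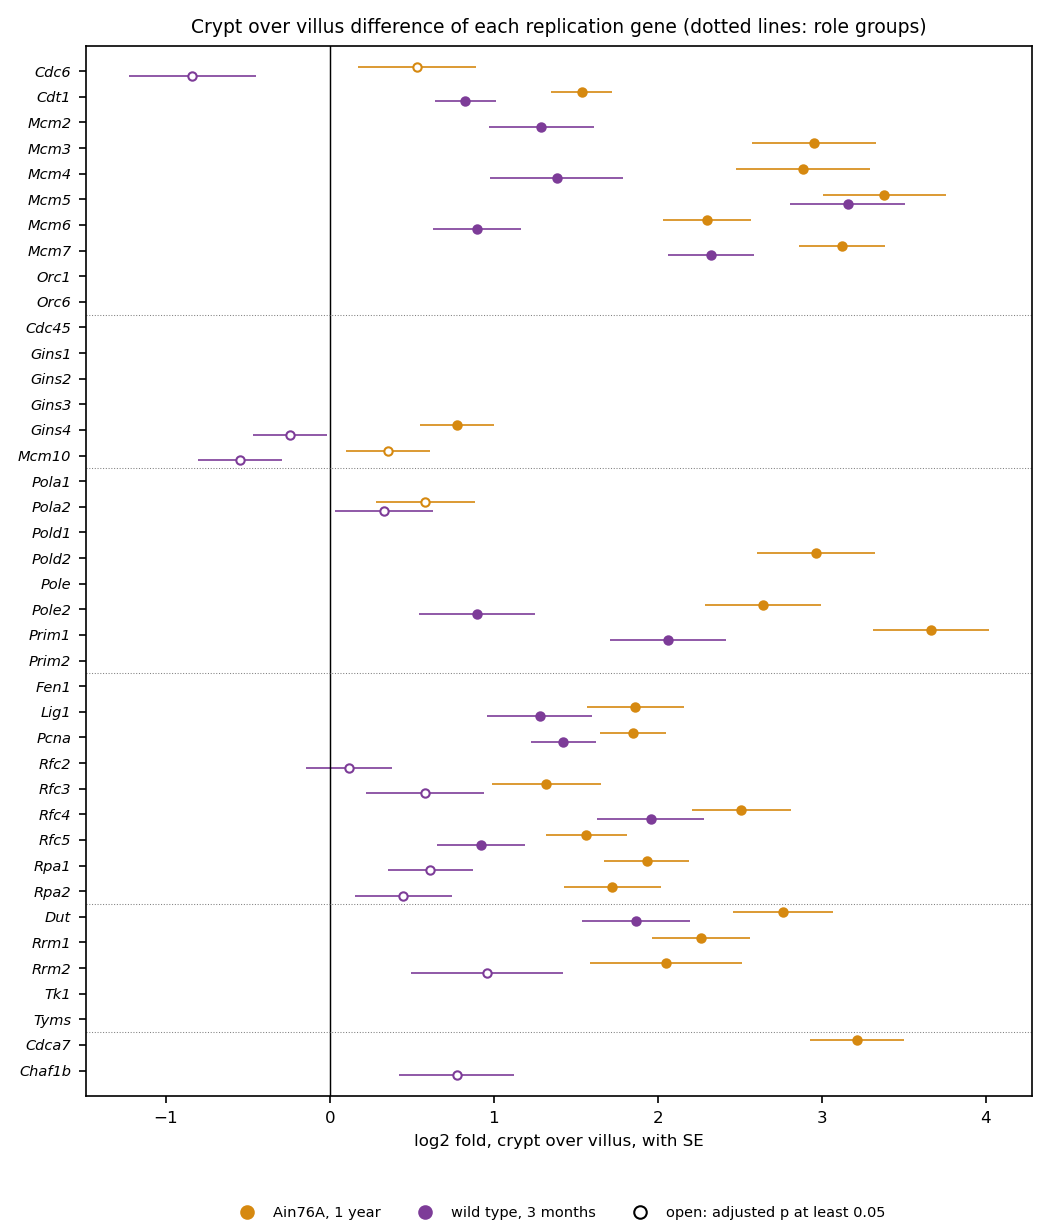
Log2 fold of crypt over villus with its SE (horizontal axis) for each of the 40 genes, ordered by role and parted by dotted lines, in Ain76A mice at 1 year (orange) and wild-type mice at 3 months (purple). Filled points have an adjusted p under 0.05 and genes without a point were not tested. Prim1 and Mcm5 lie farthest right, at 3.67 and 3.38 in Ain76A mice, and Cdc6, Pola2 and Mcm10 have open points in both conditions.

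Among the licensing genes, the helicase subunit Mcm5 (chr8:75109468-75128439 in GRCm38.p6, as for the positions of all genes here) had the largest mean fold over 6 conditions, at 2.68. In Ain76A mice Mcm5 had log2 levels of 12.15, 11.29, 11.60 and 11.30 on crypt arrays, against 7.94, 8.43 and 8.22 on the 3 villus arrays with a value. In wild-type mice it had 11.45, 11.15, 11.33 and 10.83 on crypt arrays, against 7.47, 8.19, 8.15 and 8.32 on villus arrays. The tissues did not overlap in either condition, and the log2 fold was 3.38 ± 0.38 (limma adjusted p = 1.71e-09) in Ain76A mice and 3.16 ± 0.35 (limma adjusted p = 5.74e-09) in wild-type mice (± SE). A second Mcm5 probe set gave 2.80 in Ain76A mice and 2.09 in wild-type mice.

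Mcm7, Mcm3 and Mcm4, subunits of the same ring, had mean folds of 2.24, 2.29 and 2.09, and Mcm6 of 1.42. Mcm2, the remaining subunit, had 0.77, from 0.05 to 1.5, and was called in 2 of the 5 conditions tested. Its second probe set gave 1.26 in p21-/- mice and 2.44 in NWD1 mice (limma adjusted p of 0.00933 and 6.95e-06), against 0.05 and 0.51 for the first. Cdt1, which brings the ring to origins, had a mean fold of 1.02 and was called in all 6.

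Cdc6 (chr11:98907709-98923942), the ATPase that loads the ring, was called in 0 of 5 conditions. It had 8.95, 8.42, 8.70 and 8.38 on crypt arrays of Ain76A mice, against 7.67, 8.25, 8.15 and 8.25 on villus arrays, a log2 fold of 0.53 ± 0.36 (limma adjusted p = 0.216). Wild-type mice had 8.37, 6.58, 7.01 and 8.30 on crypt arrays, against 8.11, 8.48 and 8.62 on villus arrays. The tissues overlapped in wild-type mice, where the crypt arrays spread over the wider range and the log2 fold was -0.84 ± 0.39 (limma adjusted p = 0.0748). Crypt arrays 2 and 3 were the low ones, and in Ain76A mice the tissues did not overlap. In wild-type mice Cdc6 was called lower in crypts without crypt array 1 (-1.10, limma adjusted p = 0.0268) or crypt array 4 (-1.08, limma adjusted p = 0.0274). In Ain76A mice it was called higher with the deposited scaling (0.83, limma adjusted p = 0.0465) and with only the groups compared in the fit (0.53, limma adjusted p = 0.0322).

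**Figure D3:**
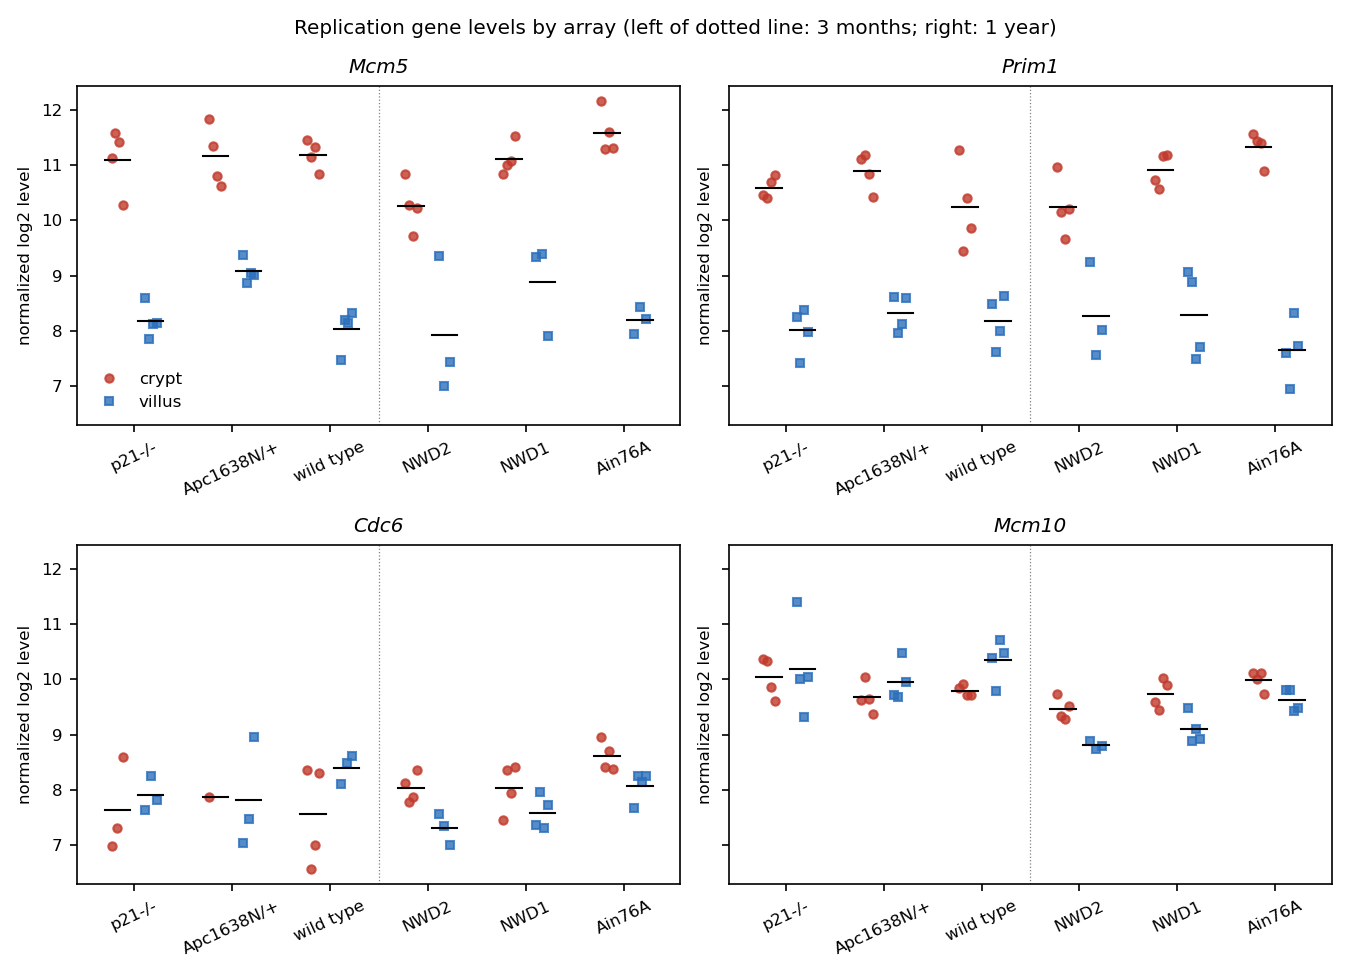
Normalized log2 level (vertical axis) of Mcm5, Prim1, Cdc6 and Mcm10 on each array, crypts as red circles left of villi as blue squares, by condition, with the group mean as a black line. Mcm5 and Prim1 are separated between the tissues in every condition. Cdc6 is separated in NWD2 and Ain76A mice and Mcm10 in NWD2 mice, and in the other conditions their tissues overlap.

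Of the genes that switch the helicase on, Gins4 and Mcm10 could be tested in every condition. Gins4 (chr8:23226610-23237668), a GINS subunit, had 9.53, 9.58, 9.33 and 9.38 in crypts of Ain76A mice, against 8.26, 8.86, 8.70 and 8.89 in villi. This was the 1 condition in which it was called, at 0.78 ± 0.23 (limma adjusted p = 0.00379), and the tissues did not overlap. In wild-type mice it had 9.32, 8.33, 9.09 and 8.37 in crypts, against 9.16, 8.63, 9.43 and 8.86 in villi. The tissues overlapped there, with a log2 fold of -0.24 ± 0.23, and of 0.18 without crypt arrays 2 and 4.

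Mcm10 (chr2:4990724-5012791), which the loaded helicase needs to start unwinding, had the smallest mean fold, 0.11, from -0.55 in wild-type mice to 0.67 in NWD2 mice. In Ain76A mice it had 10.11, 10.00, 10.11 and 9.73 in crypts, against 9.80, 9.80, 9.43 and 9.49 in villi, with a log2 fold of 0.36 ± 0.26 (limma adjusted p = 0.244). Wild-type mice had 9.84, 9.92, 9.71 and 9.71 in crypts, against 10.39, 9.79, 10.71 and 10.48 in villi. Both comparisons overlapped, and Mcm10 was called in 1 condition, higher in crypts of NWD1 mice, at 0.64 ± 0.26 (limma adjusted p = 0.0416). Without villus array 2 of wild-type mice, Mcm10 was called lower in their crypts (-0.73, limma adjusted p = 0.0253). The other Mcm10 probe sets were mostly blank.

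Prim1 (chr10:128015215-128030030), the catalytic subunit of primase, had the largest fold among the polymerases. On crypt arrays of Ain76A mice it had 11.56, 11.43, 11.40 and 10.89, against 7.60, 6.95, 8.32 and 7.73 on villus arrays. In wild-type mice it had 11.28, 9.44, 10.40 and 9.86 on crypt arrays, against 8.48, 7.62, 8.0 and 8.63 on villus arrays. The tissues did not overlap in either, with log2 folds of 3.67 ± 0.35 (limma adjusted p = 7.09e-11) in Ain76A mice and 2.07 ± 0.35 (limma adjusted p = 8.94e-06) in wild-type mice. Crypt arrays 2 and 4 of wild-type mice had the 2 lowest crypt levels of Prim1 in that group.

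Pold2 and Pole2, accessory subunits of the lagging- and leading-strand polymerases, had mean folds of 2.22 and 1.96 and were called wherever tested. Prim2, the partner of Prim1, had a smaller mean fold of 1.02 over 3 conditions. It was called in each in the fit over all groups. With the replicate number as a block, Prim2 was not called in NWD2 mice (1.05, limma adjusted p = 0.0675) or Apc1638N/+ mice (0.87, limma adjusted p = 0.0598). With another probe set rule it was not called in Apc1638N/+ mice either (0.84, limma adjusted p = 0.0502). Pola2 (chr19:5940543-5964238), the accessory subunit of the same primase complex, was not called in any of 6 conditions in the fit over all groups. It had 9.37, 8.96, 9.19 and 8.98 in crypts of Ain76A mice, against 8.43, 8.59, 8.69 and 8.45 in villi, without overlap but at a log2 fold of 0.58 ± 0.30 (limma adjusted p = 0.0989). It was called in Ain76A mice with the deposited scaling (0.85, limma adjusted p = 0.0104) and with only the groups compared in the fit (0.58, limma adjusted p = 0.0054). Wild-type mice had 8.94, 9.03, 9.46 and 8.36 in crypts, against 8.63, 8.93, 8.62 and 8.28 in villi. The tissues overlapped in wild-type mice, where the log2 fold was 0.33 ± 0.30. Its mean fold over the conditions was 0.21.

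The clamp loader genes differed among themselves. Rfc4 (chr16:23113948-23127730) had 10.95, 10.68, 10.60 and 10.14 in crypts of Ain76A mice, against 7.98, 8.15, 8.41 and 7.78 in villi. In wild-type mice it had 10.33, 8.92, 9.37 and 9.35 in crypts, against 7.48, 7.53 and 7.58 in villi. The tissues did not overlap, with log2 folds of 2.51 ± 0.30 (limma adjusted p = 6.17e-09) in Ain76A mice and 1.96 ± 0.33 (limma adjusted p = 6.23e-06) in wild-type mice.

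Rfc3 (chr5:151642817-151651208), another loader subunit, had 9.77, 9.64, 9.66 and 9.37 in crypts of Ain76A mice, against 8.38, 8.24, 8.25 and 8.28 in villi, a log2 fold of 1.32 ± 0.33 (limma adjusted p = 8.86e-04). Wild-type mice had 8.83, 8.67, 8.92 and 8.98 in crypts, against 7.73, 8.66 and 8.42 in villi, a log2 fold of 0.58 ± 0.36 (limma adjusted p = 0.183). The tissues did not overlap in either condition, though in wild-type mice the nearest arrays lay at 8.67 and 8.66. Rfc3 was called in 3 of 6 conditions, Rfc5 in 5 of 6 and Rfc2 in 1 of 3. An alternative Rfc2 probe set was called higher in crypts of Ain76A mice (0.83, limma adjusted p = 0.0182) and Apc1638N/+ mice (0.94, limma adjusted p = 0.0109).

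Pcna, the clamp itself, was called in all 6 conditions with a mean fold of 1.31, and Lig1, the ligase that seals the copied fragments, with 1.69. Rpa1 and Rpa2, subunits of the protein that covers single strands, had mean folds of 0.98 and 1.02 and were called in 3 and 4 of 6 conditions.

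Of the 5 genes of nucleotide supply, Dut was called higher in crypts in 6 of 6 conditions, Rrm2 in 5 of 6, Rrm1 in 4 of 4 tested and Tk1 in 1 of 1, and Tyms could not be tested. Dut (chr2:125247248-125259049), which clears dUTP, had 11.02, 10.80, 10.46 and 10.15 in crypts of Ain76A mice, against 7.89, 7.33, 8.53 and 7.62 in villi. In wild-type mice it had 9.65, 9.03, 9.70 and 9.13 in crypts, against 7.01, 7.68 and 7.84 in villi. The tissues did not overlap, with log2 folds of 2.76 ± 0.31 (limma adjusted p = 1.46e-09) in Ain76A mice and 1.87 ± 0.33 (limma adjusted p = 1.66e-05) in wild-type mice.

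Rrm1 (chr7:102441695-102469771), the large subunit of ribonucleotide reductase, had 10.94, 10.91, 10.83 and 10.68 in crypts of Ain76A mice, against 8.63, 8.29, 9.13 and 8.26 in villi. The tissues did not overlap, with a log2 fold of 2.26 ± 0.30 (limma adjusted p = 7.39e-08). Wild-type mice had 10.12, 8.30, 8.82 and 8.55 in crypts, against 9.13 and 8.93 on the 2 villus arrays with a value, and the gene was not tested there. In wild-type mice 3 of the 4 crypt arrays lay below both villus values. Rrm2, the small subunit, had a mean fold of 1.74.

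Of the chromatin genes, Chaf1b (chr16:93883900-93906115), a subunit of the chromatin assembly factor that follows the fork, had 9.46, 9.29, 9.69 and 9.10 in crypts of Ain76A mice, against 7.06 and 7.0 on the 2 villus arrays with a value, and was not tested there. In wild-type mice it had 8.63, 8.0, 8.75 and 7.83 in crypts, against 7.26, 6.94 and 8.39 in villi. These overlapped, with a log2 fold of 0.78 ± 0.35 (limma adjusted p = 0.0672). In wild-type mice Chaf1b was called higher in crypts with the deposited scaling (0.79, limma adjusted p = 0.0497) and without crypt array 4 (0.93, limma adjusted p = 0.0389). It was also called there without villus array 4 (1.21, limma adjusted p = 0.00824) and without crypt arrays 2 and 4 together (1.16, limma adjusted p = 0.0209). Chaf1b was called in the other 4 conditions, though in NWD2 mice not with the replicate number as a block (1.13, limma adjusted p = 0.052). Cdca7, a partner of the remodeler Hells, had a mean fold of 2.23 over 3 conditions and was called in each.

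Where several probe sets of a gene were measured in both tissues of Ain76A mice, they pointed the same way. This was so for all 11 such genes with 24 probe sets, and the widest spread between probe sets of 1 gene was 1.08 in log2 fold, for Mcm7. In wild-type mice 8 of 10 such genes had probe sets of the same sign. The probe sets of Rpa2 gave 0.45 and -0.34 there, and those of Rfc2 gave 0.12, 0.09 and -0.37. Of the 40 representative probe sets, 5 carry the suffix x_at and 4 the suffix s_at, marks for probes that can match more than 1 transcript, and the level of such genes is less certain. Those of Mcm4, Mcm5, Pold1, Fen1 and Rrm2 are x_at sets, and those of Mcm2, Mcm3, Mcm7 and Gins2 are s_at sets.

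A separate list of 30 other replication genes was also compared between the tissues. In Ain76A mice 12 of 18 tested were higher in crypts and 1 lower, with a median of 1.30, and in wild-type mice 13 of 20 were higher and 2 lower, with a median of 0.84. Topbp1, which helps to activate the helicase, Rnaseh2c, a subunit of the enzyme that removes RNA from DNA, and Rpa3 had the smallest p in Ain76A mice, at log2 folds of 2.49, 2.11 and 2.45. The largest fold on that list was 2.91. Among 16 E2F factors and S phase regulators, 7 of 11 tested were higher in crypts of Ain76A mice and 1 was lower. The kinase subunit Dbf4 was higher by 2.75 ± 0.29 and cyclin gene Ccna2 by 3.38 ± 0.43 (± SE), and E2f3, an E2F factor, was lower, at -1.26 ± 0.22.

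Within groups, the genes varied together across the crypt arrays to different degrees. For the 25 genes measured on all 24 crypt arrays, each gene's deviation from its group mean was correlated with the mean deviation of the other 24. Pearson's r ranged from 0.06 to 0.85, with a median of 0.63, and was over 0.5 for 18 genes. It was highest for Rfc5 (0.85), Dut (0.84), Mcm5 (0.83) and Mcm7 (0.83), and lowest for Mcm2 (0.06), Pcna (0.30) and Cdca7 (0.36). The points share array, normalization and tissue preparation, so r is a description only.

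Array means of the replication genes were set beside those of the enterocyte markers. The mean log2 level of the 10 genes measured on every array was 10.36 to 11.19 in crypts of NWD2 mice, 11.01 to 11.47 in NWD1 mice and 11.23 to 11.87 in Ain76A mice. It was 10.85 to 11.37 in crypts of p21-/- mice, 10.82 to 11.44 in Apc1638N/+ mice and 10.83 to 11.51 in wild-type mice. Villus arrays lay between 9.07 and 10.31. The lowest crypt array, array 3 of NWD2 mice, was also the crypt array with the highest mean of enterocyte markers, 14.94.

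**Figure D4:**
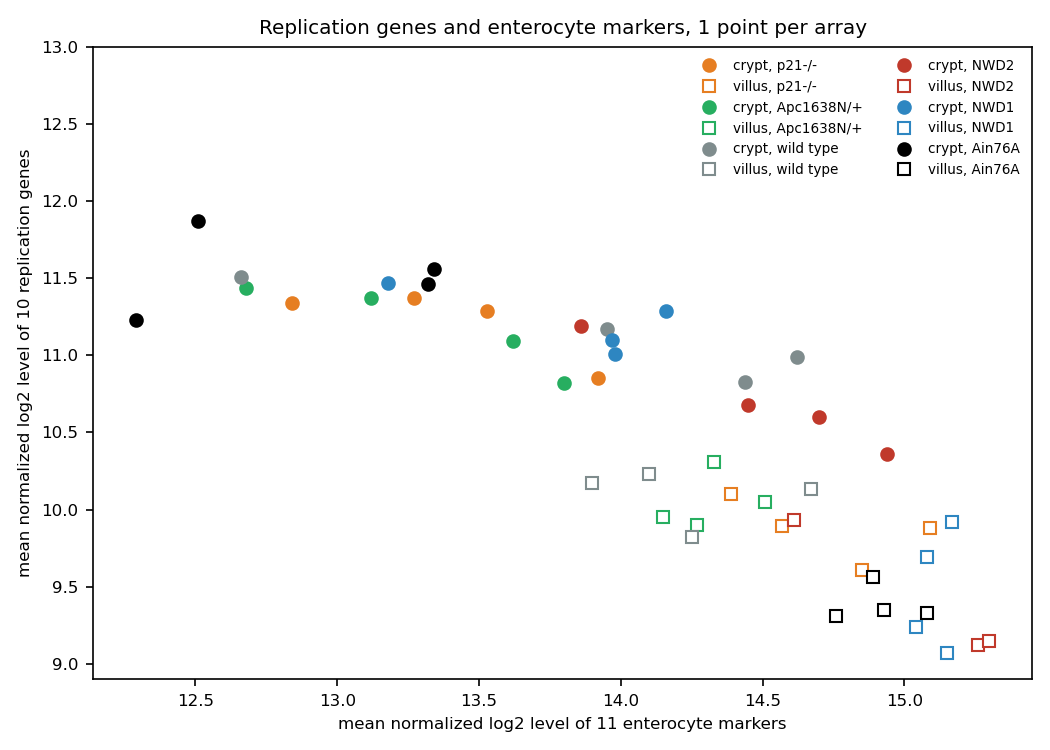
Mean normalized log2 level of the 10 replication genes measured on every array (vertical axis) against that of 11 enterocyte markers (horizontal axis), 1 point per array, crypts filled and villi open, coloured by condition. Crypt arrays of NWD2 mice (10.36 to 11.19) lie to the right of and below those of Ain76A mice (11.23 to 11.87), toward the villus arrays.

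The diets were compared with Ain76A within the tissue to ask what a long Western-style diet does to these genes. NWD2 and NWD1 share the Ain76A arrays. In crypts of NWD2 mice, 10 of the 36 genes tested were lower than in Ain76A mice, while 3.34% of all genes were called lower. These were the licensing genes Mcm7, Mcm5, Orc6 and Cdt1, and Gins1, Prim1, Pcna, Rpa1, Dut and Cdca7. All 36 folds were below 0, with a median of -0.76, against -0.09 over all genes tested. The groups did not overlap for 18 of the 36 genes, all lower in NWD2 mice, and for 16.1% of all genes tested in that direction.

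Mcm7 (chr5:138164583-138172111) had log2 levels of 12.42, 11.77, 11.28 and 11.82 in crypts of NWD2 mice and 12.29, 12.37, 12.57 and 12.84 in NWD1 mice, against 13.25, 12.83, 12.87 and 12.66 in Ain76A mice. All NWD2 arrays lay below all Ain76A arrays, while NWD1 arrays overlapped with both. Mcm7 fell by 1.08 ± 0.26 in NWD2 mice (limma adjusted p = 0.00750), and its NWD1 log2 fold was -0.39 ± 0.26.

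Mcm5 had 10.83, 10.27, 9.72 and 10.23 in crypts of NWD2 mice and 10.84, 11.00, 11.08 and 11.53 in NWD1 mice, against 12.15, 11.29, 11.60 and 11.30 in Ain76A mice. All NWD2 arrays were the lowest, array 3 most of all. Mcm5 fell by 1.32 ± 0.35 in NWD2 mice (limma adjusted p = 0.0137), the largest fall among the 10, and its NWD1 log2 fold was -0.47 ± 0.35.

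Dut had 9.98, 9.31, 9.05 and 9.62 in crypts of NWD2 mice and 10.07, 10.16, 10.34 and 10.56 in NWD1 mice, against 11.02, 10.80, 10.46 and 10.15 in Ain76A mice. NWD2 arrays again lay below all others. Dut fell by 1.12 ± 0.31 (limma adjusted p = 0.0174), and its NWD1 log2 fold was -0.33.

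Prim1 had 10.97, 10.16, 9.67 and 10.20 in crypts of NWD2 mice and 10.73, 10.57, 11.17 and 11.19 in NWD1 mice, against 11.56, 11.43, 11.40 and 10.89 in Ain76A mice. NWD2 array 1 lay above Ain76A array 4, so the groups overlapped. Prim1 fell by 1.07 ± 0.35 (limma adjusted p = 0.0491).

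Cdca7 had 10.38, 10.02, 9.58 and 9.79 in crypts of NWD2 mice and 10.23, 10.30, 10.43 and 10.41 in NWD1 mice, against 11.36, 10.87, 10.79 and 10.54 in Ain76A mice. It was 1 of 3 genes, with Fen1 and Pold1, whose NWD1 arrays lay below all Ain76A arrays too, a pattern seen in 5.03% of all genes. Cdca7 fell by 0.95 ± 0.29 in NWD2 mice (limma adjusted p = 0.0337).

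Orc6, a subunit of the origin recognition complex, had 9.21, 8.36, 8.28 and 8.61 in crypts of NWD2 mice, against 9.81, 9.56, 9.54 and 9.13 in Ain76A mice, and fell by 0.89 ± 0.25 (limma adjusted p = 0.0246). The GINS gene Gins1 had 8.86, 8.48, 8.16 and 8.36, against 9.65, 9.41, 9.43 and 9.10 in Ain76A mice, and fell by 0.93 ± 0.30 (limma adjusted p = 0.0492). The groups overlapped for Orc6 and not for Gins1. Pcna, Cdt1 and Rpa1 fell by 0.65, 0.57 and 0.79, with limma adjusted p of 0.0354, 0.0462 and 0.0491. The other 26 genes tested did not pass, with Rrm2 at the lowest fold, -1.23 ± 0.46, and Rfc2 at the highest, -0.20.

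The calls in NWD2 crypts rest on few arrays. Without crypt array 3 of NWD2 mice, 0 genes passed in limma, with a median fold of -0.62. Without NWD2 array 2 there were 2, without Ain76A array 1 there was 1, and without NWD2 array 1 there were 17. There were 4 without NWD2 array 4 or Ain76A array 2, 3 without Ain76A array 3 and 7 without Ain76A array 4. Mcm7 stayed called in 7 of the 8 fits that leave out an array, Mcm5 in 6 and Dut in 5. Gins1 and Rpa1 stayed called in 1 of 8 each. With the second Rrm1 probe set that gene was called too (-0.98, limma adjusted p = 0.0293). With the deposited scaling 4 genes were called (Dut, Mcm3, Mcm7 and Orc6), and with only the NWD2 and Ain76A crypt arrays in the fit 29.

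In the same comparison, 10 of 11 enterocyte markers rose in crypts of NWD2 mice, with a median log2 fold of 1.69. Their mean level was 13.86 to 14.94 on NWD2 arrays, against 12.29 to 13.34 on Ain76A arrays, without overlap. None of the 11 was blank on any array, and Sis, the twelfth listed marker, had no representative. Mitosis genes fell in 6 of 21 tested, with the smallest p for Mad2l1, Cks2 and Cdk1 and a median of -1.08. Other replication genes fell in 6 of 27 tested, with the smallest p for Dnmt1, Rnaseh2c and Slbp. Paneth cell markers were called in 0 of 6 (median -0.73). The part of enterocyte content in the fall of the replication genes was not tested.

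**Figure D5:**
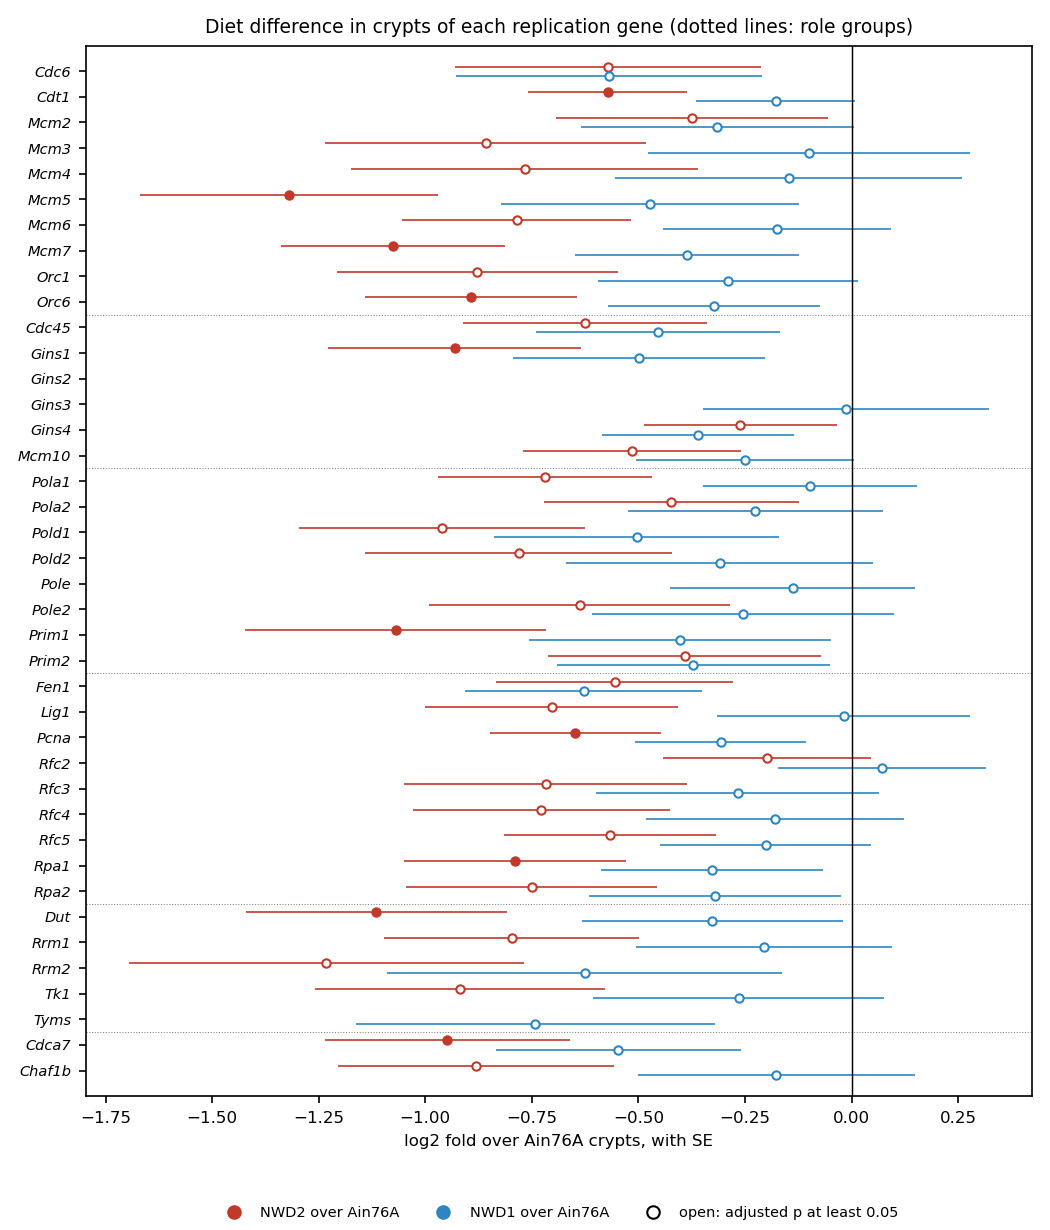
Log2 fold over Ain76A crypts with its SE (horizontal axis) for each of the 40 genes, ordered by role and parted by dotted lines, in NWD2 crypts (red) and NWD1 crypts (blue). Filled points have an adjusted p under 0.05, and genes without a point were not tested. All 36 NWD2 folds lie left of 0, 10 of them filled, and 38 of 39 NWD1 folds lie left of 0, none filled.

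In crypts of NWD1 mice, 0 of the 39 genes tested were called by limma, and 0.0% of all genes were called. At an unadjusted p under 0.05 there was 1 gene. The folds were below 0 for 38 of 39 genes, with a median of -0.31, against -0.06 over all genes. The smallest p belonged to Fen1, at -0.63 ± 0.28, Cdca7, at -0.55 ± 0.29, and Tyms, at -0.74 ± 0.42, each with a limma adjusted p of 1.00. All 11 enterocyte markers had folds above 0 in the same comparison, with a median of 0.96 and 0 called, and all 21 mitosis genes had folds below 0.

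In villi of NWD2 mice, 0 of 23 genes were called by limma, also without villus array 1, while 0.399% of all genes were called. The smallest p belonged to Mcm10, which had 8.89, 8.74 and 8.79 in villi of NWD2 mice, against 9.80, 9.80, 9.43 and 9.49 in Ain76A mice. These did not overlap, at a log2 fold of -0.83 ± 0.28 (limma adjusted p = 0.193). Cdca7, at 0.86 ± 0.31, and Rrm2, at -1.29 ± 0.50, followed. At an unadjusted p under 0.05 there were 3 genes. Groups did not overlap for 3 genes higher in NWD2 villi (Cdt1, Pcna and Rpa2), against 9.17% of all genes, and for 2 lower (Cdc6 and Mcm10), against 12.9%.

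In villi of NWD1 mice, 0 of 24 genes were called by limma, with 2 at an unadjusted p under 0.05, while 0.0675% of all genes were called. The smallest p belonged to Cdca7, at 0.61 ± 0.29, Mcm10, at -0.53 ± 0.26, and Prim1, at 0.64 ± 0.35. Without villus arrays 1 and 2 of NWD1 mice, 0 of 22 were called. Of the Paneth cell markers, 4 of 4 tested rose in villi of NWD1 mice in the fit with all arrays. The 2 measured on every array averaged 15.51, 15.20, 13.67 and 13.31 on NWD1 villus arrays 1 to 4. Ain76A villus arrays 1 to 4 had 11.13, 10.68, 12.99 and 12.98, so both groups were split. The marker count was not repeated without NWD1 arrays 1 and 2.

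Whether the crypt-villus difference itself differed between diets was tested as an interaction. For NWD2 over Ain76A, 1 of 23 genes passed, Cdca7, while 0.0985% of all genes passed in that direction. Cdca7 had 9.58, 7.92 and 8.09 in villi of NWD2 mice, against 7.55, 7.47, 8.15 and 7.52 in Ain76A mice. Villus array 1 of NWD2 mice was the high one, and the villus groups overlapped. With the crypt values above, the crypt excess of Cdca7 was 1.41 in NWD2 mice, against 3.22 in Ain76A mice, a difference of -1.81 ± 0.42 (limma adjusted p = 0.0449).

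Without villus array 1 of NWD2 mice, 0 genes passed the interaction, and 0 passed in 9 of the other fits that leave out 1 array. The count was 5 without crypt array 1 and 2 without villus array 2 of NWD2 mice. Of the 23 interaction folds, 20 were below 0, with a median of -0.92, against -0.03 over all genes. Mcm7, at -1.43 ± 0.39 (limma adjusted p = 0.0587), and Pcna, at -1.03 ± 0.30 (limma adjusted p = 0.0637), came next. With the replicate number as a block, Mcm7 and Pcna passed too, 3 genes in all. For NWD1 over Ain76A, 0 of 24 genes passed in limma and 3 had an unadjusted p under 0.05, while 0.0% of all genes passed. Cdca7 had the smallest p there as well, at -1.16 ± 0.41.

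The genotypes were compared with wild type at 3 months to ask what loss of p21 or of 1 Apc allele does to these genes. Both mutants share the wild-type arrays. In crypts of p21-/- mice, 1 of 31 genes was called higher, while 3.24% of all genes were. This was Pold1, the catalytic subunit of a replicative polymerase, with 10.91, 11.47, 11.60 and 10.74 in crypts of p21-/- mice, against 9.73, 10.49, 9.86 and 9.12 in wild-type mice. The groups did not overlap, and Pold1 rose by 1.38 ± 0.34 (limma adjusted p = 0.0195). A second Pold1 probe set gave 0.05 (limma adjusted p = 0.957). Leaving out p21-/- array 2, p21-/- array 3 or wild-type array 4 ended the call (limma adjusted p of 0.0551, 0.0771 and 0.0646), and the call held without wild-type arrays 2 and 4 together. Without wild-type array 1, Rrm1 was called too. With another probe set, Rfc2 was called at 1.09 (limma adjusted p = 0.0272).

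Chaf1b, at 0.79 ± 0.32 (limma adjusted p = 0.145), and Rrm1, at 0.66 ± 0.30 (limma adjusted p = 0.197), had the next smallest p. The median fold was 0.07, against 0.02 over all genes. Groups did not overlap for 3 genes, all higher in p21-/- mice (Cdt1, Pold1 and Rfc2), against 5.09% of all genes. In the same comparison 2 of 11 enterocyte markers fell (median -0.42), 2 of 6 Paneth cell markers rose (median 1.45), and both lymphocyte markers tested fell (median -1.73). The part of these cell types in the Pold1 value was not tested.

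In crypts of Apc1638N/+ mice, 0 of 33 genes were called by limma and 0 had an unadjusted p under 0.05, while 0.0385% of all genes were called. The median fold was 0.06. The smallest p belonged to Prim1, which had 11.11, 11.19, 10.84 and 10.42 in crypts of Apc1638N/+ mice, against 11.28, 9.44, 10.40 and 9.86 in wild-type mice. The groups overlapped, at a log2 fold of 0.65 ± 0.35. The lowest wild-type values, 9.44 and 9.86, were those of arrays 2 and 4, which were kept here. Fen1, at 0.43 ± 0.28, and Mcm7, at -0.40 ± 0.26, followed.

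In villi of p21-/- mice, 0 of 23 genes were called by limma, with 2 at an unadjusted p under 0.05, while 0.0383% of all genes were called. Mcm2, at 1.12 ± 0.32 (limma adjusted p = 0.215), Pole2, at -1.22 ± 0.35 (limma adjusted p = 0.220), and Mcm4, at -0.78 ± 0.41, had the smallest p. Without villus array 1 of p21-/- mice, Mcm2 was called in villi and for the interaction of tissue and genotype. These Mcm2 values are of its first probe set, with crypt-villus folds of 0.05 in p21-/- mice and 1.29 in wild-type mice. The second probe set gave 1.26 and 1.53, close to each other. Pole2 had 6.75, 5.75, 6.98 and 6.29 in villi of p21-/- mice, against 7.34, 7.22, 7.82 and 8.25 in wild-type mice, without overlap. Pole2 and Lig1 were the 2 genes whose arrays were all lower in p21-/- villi, against 1.94% of all genes.

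In villi of Apc1638N/+ mice, 0 of 23 genes were called by limma, with 1 at an unadjusted p under 0.05, while 0.0254% of all genes were called. That gene was Mcm5, with 9.38, 8.87, 9.04 and 9.02 in villi of Apc1638N/+ mice, against 7.47, 8.19, 8.15 and 8.32 in wild-type mice. The groups did not overlap, at a log2 fold of 1.05 ± 0.35 (limma adjusted p = 0.688), and 0.826% of all genes were likewise higher without overlap. Rfc5, at -0.51 ± 0.27, and Lig1, at -0.61 ± 0.32, followed.

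The interaction of tissue and genotype was called for 0 of 23 genes in p21-/- mice, while 1.69% of all genes were called, and for 0 of 22 in Apc1638N/+ mice, against 0.0144%. At an unadjusted p under 0.05 there were 4 and 2 genes. Pole2, at 1.55 ± 0.52 (limma adjusted p = 0.0993), Mcm2, at -1.24 ± 0.45, and Lig1, at 1.03 ± 0.45, had the smallest p in p21-/- mice. The Mcm2 value is again that of its first probe set. In Apc1638N/+ mice these were Mcm5, at -1.09 ± 0.49, Rfc5, at 0.74 ± 0.37, and Lig1, at 0.75 ± 0.44.

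Ain76A mice at 1 year and wild-type mice at 3 months share genotype and diet, but age and arm of the study cannot be told apart. In crypts, 8 of 38 genes were higher at 1 year, while 6.28% of all genes were. These were Rrm1, Dut, Rfc4, Gins1, Chaf1b, Tk1, Prim1 and Gins4. All 38 folds were above 0, with a median of 0.55, against 0.08 over all genes. Rrm1 had the largest, with 10.94, 10.91, 10.83 and 10.68 at 1 year, against 10.12, 8.30, 8.82 and 8.55 at 3 months. The ages did not overlap, at 1.89 ± 0.30 (limma adjusted p = 1.27e-04), and a second Rrm1 probe set gave 0.67 (limma adjusted p = 0.122).

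Dut rose by 1.23 ± 0.31 (limma adjusted p = 0.00867), Rfc4 by 1.10 ± 0.30 (limma adjusted p = 0.0153) and Chaf1b by 1.08 ± 0.32 (limma adjusted p = 0.0257). Without crypt arrays 2 and 4 of wild-type mice, Rrm1 was the 1 gene called of 37, and the median fold was 0.26. Leaving out single arrays gave 1 call without wild-type array 2, 2 without Ain76A array 1, 3 without Ain76A array 2 or 3, 4 without wild-type array 4 and 14 without wild-type array 1. Enterocyte markers fell in 7 of 11, with a mean level of 12.29 to 13.34 at 1 year, against 12.66 to 14.62 at 3 months, and mitosis genes rose in 9 of 20. The part of enterocyte content in these rises was not tested.

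In villi, 5 of 20 genes were lower at 1 year than at 3 months, while 9.7% of all genes were. Rpa1 had 9.81, 9.41, 9.79 and 9.54 at 1 year, against 11.21, 10.60, 10.37 and 10.84 at 3 months, and fell by 1.12 ± 0.26 (limma adjusted p = 0.00318). Mcm6 had 9.40, 9.42, 9.43 and 9.23 at 1 year, against 10.25, 10.06, 10.52 and 10.59 at 3 months, and fell by 0.99 ± 0.27 (limma adjusted p = 0.00946). Neither gene overlapped between the ages. Rpa2, Cdt1 and Mcm10 fell by 1.05, 0.54 and 0.71, with limma adjusted p of 0.0121, 0.0423 and 0.0495. There were 4 calls without villus array 1 or 2 of wild-type mice, and 3 without any other villus array of the groups.

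All 6 lymphocyte markers tested fell in villi at 1 year (median -2.39). The mean level of the 2 measured on every array, Ptprc and Gzma, was 11.90 to 12.75 at 1 year, against 13.80 to 14.78 at 3 months. Enterocyte markers rose in 3 of 11. The part of these cell types in the fall of the 5 genes was not tested.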

How the data were processed

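Messenger RNA of small-intestine crypts and villi was read on 47 arrays. The authors deposited 1 table of log2 values for 45101 probe sets, with GCOS named as software in the submitters' processing notes and its version and scaling not given in the sources used here. Of the cells, 55.2% were blank. The values were quantile normalized on the 8404 probe sets without a blank, since the deposited trimmed means differed between arrays by up to 1.44-fold, and other values were placed by interpolation. A probe set was kept when it lay above the array's median, blanks ranked lowest, on at least 3 arrays (30344 probe sets). The probe set with the highest mean represented its gene, giving 13507 genes. Of all probe sets, 34958 had 1 symbol, 932 several and 9211 none.

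A one-way model over the 12 groups was fitted with limma 3.58.1 in R 4.3.3 (eBayes with trend) on all genes, with Benjamini-Hochberg adjustment and a threshold of 0.05. A gene entered a comparison with values on at least 3 arrays of each group, and in fits with arrays left out kept its place with at least 2. Data were prepared with Python 3.11.15, numpy 2.4.6 and pandas 2.3.3, and the fit was tested on simulated data. There, changes were set in crypts of NWD2 mice over Ain76A mice. The fit called 55% of genes changed by a log2 fold of 1 in size, and 97% of those changed by 2. A gene that is not called can therefore still differ. Alternatives were the deposited scaling, no filter, a stricter filter added after seeing the data, blanks set to each array's percentile 1, another probe set rule, a fit on the compared groups, a replicate block, and leaving out arrays.

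The members and lists were chosen with earlier results of these data known. Within each role, array values are given for the largest and smallest mean crypt fold among genes tested in at least 4 conditions. In other comparisons every member that passed is named, or the 3 with the smallest p, and up to 3 genes of other lists. Replicate numbers come from the labels. Deviations of crypt and villus arrays with the same number correlated at over 0.1 in every pair in Ain76A mice (0.13 to 0.29) and NWD2 mice (0.29 to 0.49). Arrays with the same number from different mice reached 0.59, for crypt arrays 3 of Apc1638N/+ and wild-type mice. These correlations therefore do not show pairing, and the labels do not say that equal numbers mark the same animal. All folds in the text are from the one-way model unless the block is named, and the block was fitted as an alternative for every condition.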

Additional observations from a re-analysis of the deposited data

Results flagged for a closer look

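Crypt array 4 of p21-/- mice had a mean log2 level of 10.85 over the 10 replication genes measured on every array, while the other 3 arrays of its group lay between 11.29 and 11.37. Villus array 3 of Ain76A mice had 9.56, while the other 3 lay between 9.31 and 9.35. In each case the gap to the nearest array was a large part of the range of the group. These were 2 of 64 groups and measures examined, and chance flags about 1 in 20. The crypt excess of Cdca7 differed between NWD2 and Ain76A mice by -1.81 in log2 fold, by a test of the difference itself.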

How the results depend on the processing

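Numbers here are counts of replication genes called by limma. Setting blanks to each array's percentile 1 gave 23 crypt-villus calls in wild-type, 26 in p21-/- and 36 in Ain76A mice, 1 in NWD1 crypts, 6 in NWD2 crypts, 0 for the NWD2 interaction and 3 in crypts by age. This setting also tests genes that were left out as blank. Fitting the compared groups alone gave 0 calls in p21-/- crypts, 29 in NWD2 crypts, 1 in NWD2 villi and 10 for the NWD2 interaction. The deposited scaling gave 4 in NWD2 crypts, 1 for the p21-/- interaction and 5 in crypts by age. It moved the median fold of all genes to -0.13 in p21-/- crypts (0.02 with quantile scaling), to -0.24 for the p21-/- interaction (-0.01), to -0.16 for the Apc1638N/+ interaction, to 0.01 in NWD2 crypts (-0.09) and to 0.04 in wild-type crypts over villi (-0.11). Calls over all genes were then split 1856 higher and 1478 lower in wild-type crypts over villi, with 1548 and 1968 under quantile scaling, and 625 and 139 in NWD2 crypts, with 482 and 306. The replicate block gave 3 for the NWD2 interaction and moved no other count by over 1.5 times. In wild-type mice the block called Cdc6 lower in crypts (-1.08), though equal numbers are not known to mark the same animal. Without wild-type crypt arrays 2 and 4, 1 gene was called in crypts by age, and the Gins4 fold in wild-type mice was 0.18. Other filters and probe set rules kept counts within 1.5 times. Leaving out 1 array gave crypt-villus counts of 13 to 15 in wild-type, 15 to 22 in Apc1638N/+, 15 to 17 in p21-/-, 21 in each fit in Ain76A, 25 to 26 in NWD1 and 8 to 18 in NWD2 mice. It gave 0 to 2 in p21-/- crypts, 0 to 1 in p21-/- villi and for the p21-/- interaction, 0 to 17 in NWD2 crypts, 0 to 5 for the NWD2 interaction, 1 to 14 in crypts and 3 to 4 in villi by age, and 0 in each other comparison. The causes of these changes were not tested. Blank cells limit what villi can show, since 9 genes could not be compared between the tissues by the probe set that represents them, 6 of them by no probe set. Signal over background is not given by the deposited values, and why a cell was left blank is unknown.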
